A study of Mus musculus with 2 samples.

Results

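The fibroblasts described here were 259 cells of bleomycin-injured mouse lung that carried the transcripts Hhip, Aspn or Fgf18, genes often used to mark stromal cells beside airways and alveolar ducts. They were 131 cells of a vehicle library and 128 of a navitoclax library, out of 16848 barcodes in both. Cells were chosen by their own counts of unique molecular identifiers (UMIs, each standing for 1 captured RNA molecule). A cell needed at least 500 genes, at most 15% mitochondrial UMIs, at least 5 UMIs of the collagen genes Col1a1, Col1a2 and Col3a1 together and at most 1 of the epithelial gene Epcam. It also needed at least 3 UMIs of Hhip, Aspn and Fgf18 together and fewer than 2 of Cthrc1, a gene of fibrotic fibroblasts. Cells with 5 or more UMIs per 10000 from Pi16, Dpt and Ccl11 (adventitial fibroblast genes) were left out, as were cells with 10 or more per 10000 from Myh11, Des, Cnn1, Actg2, Higd1b and Cox4i2 (smooth muscle and pericyte genes).

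All mice were C57Bl6, received bleomycin, a drug that scars the lung, on day 1, and had their lungs taken 21 days after injury. Vehicle or navitoclax (ABT-263), which blocks BCL-2, BCL-XL and BCL-W, proteins that hold off apoptosis, was given from day 15 to day 20. Sorted epithelial and stromal cells were pooled in equal parts before capture with a Chromium 3′ kit. The study concerns BCL-2, the stress response of the endoplasmic reticulum (ER) and lung fibrosis. Each group had 1 library, so no difference between treatments has a replicate check and no test was possible, and how many mice each library pooled is not stated in the labels. Every interval is a 95% interval that covers counting error only. The 259 cells held 1196027 vehicle and 1209289 navitoclax UMIs, with medians of 8195 and 8900.5 per cell, and none of their barcodes occurred in both libraries, although 20 barcodes of the whole series did.

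Airway and alveolar epithelium makes hedgehog ligands, which bind the receptor PTCH1 on stromal cells, release SMO and activate the GLI transcription factors. HHIP binds the same ligands and is itself switched on by the pathway, so it limits signalling in the cells that receive it. ASPN (asporin) is a small leucine-rich proteoglycan that binds collagen and TGF-β, and FGF18 is a growth factor of lung and cartilage development. Cells with these transcripts lie in the lung near the smooth muscle of airways and the openings of alveolar ducts.

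The levels of the 3 genes that chose the cells are given as a description. Levels are UMIs per 1000000 UMIs of the class (CPM). Hhip stood at 696 (649 to 745) with vehicle and 729 (682 to 779) with navitoclax. Aspn stood at 836 (785 to 890) and 1007 (951 to 1065), and Fgf18 at 121 (102 to 143) and 94.3 (77.8 to 113). Hhip lies on chromosome 8 at 79965851 to 80058006, Aspn on chromosome 13 at 49544443 to 49567565 and Fgf18 on chromosome 11 at 33117430 to 33147400 (GRCm38). Epithelial cells (at least 2 UMIs of Epcam and under 5 of the collagen genes), at median depths of 17956 and 19666 UMIs, had a Hhip UMI in 0.585% and 1.21% of cells, against 76.3% and 80.5% of the chosen fibroblasts. Mural cells, the collagen-positive cells over the smooth muscle and pericyte limit, had higher levels than the chosen fibroblasts, with Hhip at 1178 and 1013 CPM and Aspn at 2176 and 2083 CPM.

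The sum of the 3 genes ran from 3 to 115 UMIs per cell in the vehicle library, with a median of 6, and from 3 to 108 in the navitoclax library, with a median of 8. Many cells sat at the threshold. Exactly 29 cells of each library had the minimum of 3 UMIs, and 59 vehicle and 52 navitoclax cells had 5 or fewer. Just outside, with 2 UMIs, were 68 vehicle and 72 navitoclax cells that met every other limit. The cells at 3 UMIs and those at 2 were near each other in alveolar fibroblast genes: 8 alveolar fibroblast genes (Tcf21, Npnt, Ces1d, Inmt, Slc7a10, Itga8, Limch1 and Fgfr4) summed to 9397 CPM just inside and 9060 CPM just outside in the vehicle library, and to 8418 and 9379 CPM in the navitoclax library. Type II cell genes differed more and in opposite directions, at 14895 CPM inside and 25270 CPM outside with vehicle, and 31955 and 5857 CPM with navitoclax.

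The label of peribronchial fibroblasts was set against 9 further genes of peribronchial and ductal stromal cells that the choice did not use (Mustn1, Lgr6, Lgr5, Dach2, Egfem1, Wnt5a, Tgfbi, Cdh4 and Stc1). They summed to 844 and 1068 CPM in the vehicle and navitoclax cells, against 62.8 and 82.6 CPM in alveolar fibroblasts. They stood at 336 and 473 CPM in the cells over the Pi16/Dpt/Ccl11 limit and were highest in mural cells, at 3038 and 2801 CPM. Alveolar fibroblasts were collagen-positive cells under the same limits with at most 1 UMI of the 3 genes and at least 3 of Tcf21, Npnt, Ces1d and Inmt (1445 vehicle and 1039 navitoclax cells). The chosen fibroblasts also carried alveolar fibroblast genes, which summed to 7256 and 5573 CPM, compared with 15417 and 13562 CPM in alveolar fibroblasts themselves. The data therefore bore out the label for some of the cells only, and the whole is called Hhip/Aspn/Fgf18 fibroblasts below.

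Which of the 3 genes a cell carried separated the cells. All 3 genes had a UMI in 32 vehicle and 37 navitoclax cells, 26.6% of the 259, called triple-positive cells here. Hhip and Aspn without Fgf18 were found in 37 and 26 cells, Hhip alone in 27 and 37, and Aspn alone in 26 and 22. The remaining 15 cells had Fgf18 alone (4 and 2), Hhip with Fgf18 (4 and 3) or Aspn with Fgf18 (1 and 1). Triple-positive cells had the highest sums of the 3 genes, with medians of 27.5 and 32 UMIs, although they were not deeper, at median depths of 6194.5 and 6632 UMIs.

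**Figure D1:**
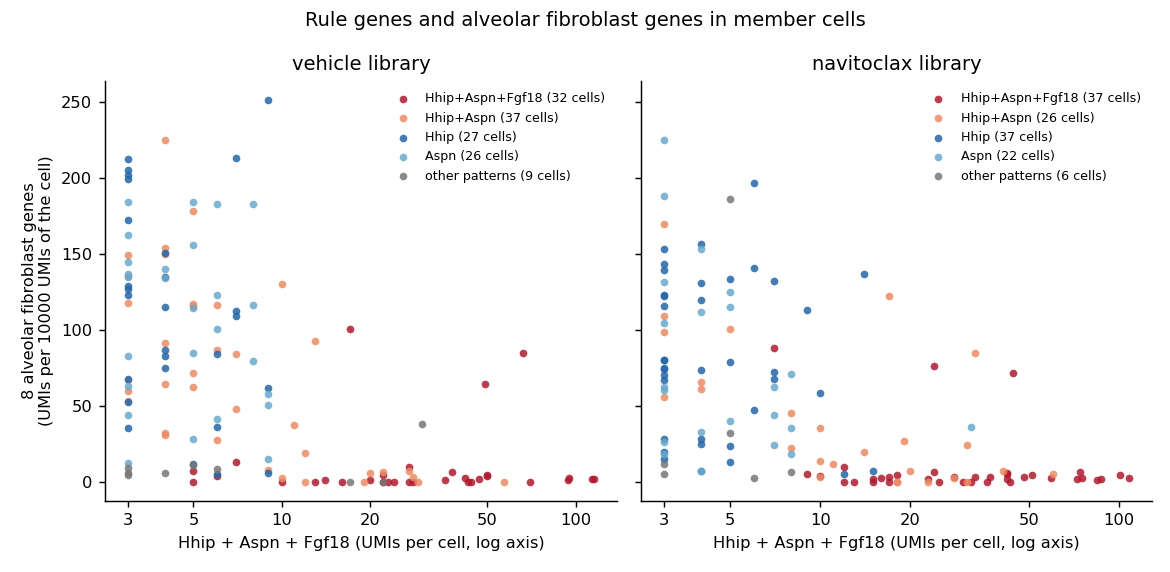
Each point is 1 of the 259 cells, with the summed UMIs of Hhip, Aspn and Fgf18 on the x axis (log scale) and the UMIs of 8 alveolar fibroblast genes per 10000 UMIs of the cell on the y axis, for the vehicle library (left) and the navitoclax library (right), coloured by which of the 3 genes had a UMI. Triple-positive cells lie mostly at the bottom right, with medians of 1.51 and 2.52 alveolar UMIs per 10000, and cells with Hhip alone lie at the top left, with medians of 112 and 74.6.

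Triple-positive cells had the highest sum of the 9 peribronchial and ductal genes, at 3266 and 3302 CPM, against 166 and 247 CPM with Hhip alone and 161 and 64.9 CPM with Aspn alone. Dach2 had 0 UMIs in all patterns, and Egfem1 and Stc1 had at most 9 UMIs in triple-positive cells of a library. Mustn1, a small nuclear protein of muscle and skeletal tissue, stood at 1901 and 1684 CPM in the triple-positive cells of each library. In cells with Hhip alone it stood at 91.0 and 122 CPM, and with Aspn alone at 92.2 and 39.0 CPM. Tgfbi, a matrix protein induced by TGF-β, stood at 484 and 414 CPM in triple-positive cells and had no UMI in the cells with Aspn alone. Lgr5, a receptor for R-spondins, stood at 101 and 225 CPM in triple-positive cells and at most at 10.4 CPM in cells with Hhip alone or Aspn alone. Wnt5a, a non-canonical Wnt ligand, stood at 450 and 533 CPM, above the other 3 patterns in each library.

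Tcf21, the transcription factor that marks alveolar fibroblasts, had the opposite order, at 105 and 127 CPM in triple-positive cells, 700.0 and 671 CPM with Hhip alone and 493 and 480 CPM with Aspn alone. Inmt, a methyltransferase abundant in lung stroma, stood at 565 and 359 CPM in triple-positive cells but at 6277 and 3619 CPM with Hhip alone. The alveolar sum was under 20 UMIs per 10000 in 29 of 32 vehicle and 34 of 37 navitoclax triple-positive cells, and in 3 of 27 and 6 of 37 cells with Hhip alone. Cells with Hhip and Aspn but no Fgf18 lay between, with 11 of 37 and 12 of 26 cells under that level.

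**Figure D2:**
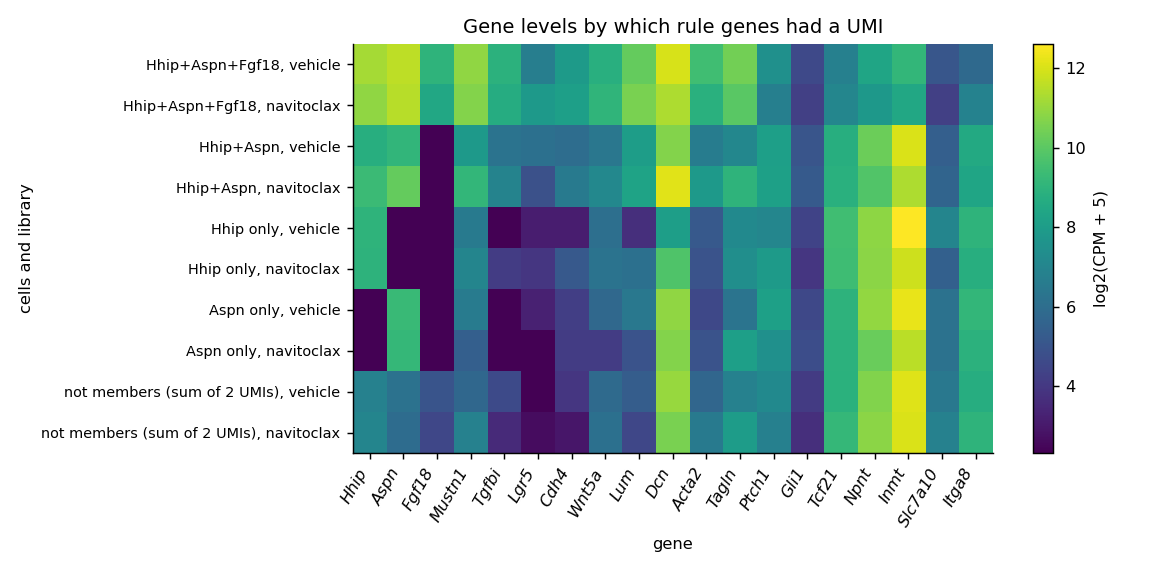
Colour gives log2(CPM + 5) of 19 genes (columns) in cells grouped by which of Hhip, Aspn and Fgf18 had a UMI (rows, each library separately), with cells just outside the choice (2 UMIs) at the bottom. The top pair of rows, the triple-positive cells, is brighter for Mustn1, Tgfbi, Wnt5a, Lum and Acta2 and darker than the others for Tcf21 and Inmt, while the rows with 1 gene resemble the cells just outside.

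Triple-positive cells were set against cells with Hhip alone or Aspn alone, and the 6 cells with Fgf18 alone were left out. This contrast, a description because both groups were picked by these transcripts, covered 2153 genes with at least 50 UMIs over both groups of cells in each library. At least 2-fold higher in triple-positive cells in both libraries were 68 genes (3.16%), and 146 (6.78%) were at least 2-fold lower. Genes in the next sentences were picked after their values were seen. Muscle-type genes were among the higher ones, with Acta2 (smooth muscle actin) at 690 and 465 CPM against 25.5 and 26.0 CPM, and Myl9 (a myosin light chain) at 287 and 279 CPM against 17.0 and 19.5 CPM. P2ry14, a receptor for UDP-glucose, stood at 642 and 646 CPM against 19.2 and 21.1 CPM. Scx, a transcription factor of tendon cells, stood at 115 and 105 CPM against 0 and 6.50 CPM. Among the lower genes, Adh1, an alcohol and retinol dehydrogenase, stood at 19.2 and 29.0 CPM against 519 and 468 CPM, and Fgfr3, an FGF receptor, at 9.58 and 10.9 CPM against 202 and 138 CPM.

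Markers of other cell types were checked in the 259 cells. Chondrocyte markers were near absent, with 0 UMIs of Acan and Col2a1, and so were endothelial and immune ones, with 0 UMIs of Cdh5, Tie1, Ptprc, Cd3e and C1qb in either library. Kdr, an endothelial receptor for VEGF, was an exception with 55 and 35 UMIs, or 46.0 and 28.9 CPM, against 11.3 and 8.09 CPM in alveolar fibroblasts. A count of 0 over the chosen cells of a library allows up to 2.51 and 2.48 CPM. With navitoclax the 5 endothelial genes summed to 3.63 CPM in triple-positive cells and 0 CPM with Hhip and Aspn, Hhip alone or Aspn alone. With vehicle these sums were 47.9, 2.56, 7.91 and 4.61 CPM. Nearly all navitoclax Kdr UMIs thus lay in the remaining cells with Fgf18, which held the 2 navitoclax cells with mesothelial genes described below. Type II cell markers were present as in all stromal classes, led by Sftpc (surfactant protein C), whose median share of a cell's UMIs was 0.188% and 0.228%. The 3 vehicle and 8 navitoclax cells with at least 1% Sftpc held 11354 of 13323 and 10865 of 13276 Sftpc UMIs. Lyz2, which type II cells also express, stood at 1861 and 2259 CPM. Doublets were not removed. Scrublet, a doublet caller, marked 7 of the vehicle and 6 of the navitoclax Hhip/Aspn/Fgf18 fibroblasts, 5.34% and 4.69%. Of all collagen-positive cells it marked 1.62% and 1.37%.

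Mesothelial genes came from 9 cells. Msln, Upk3b, Wt1 and Lrrn4, genes of the lung's outer lining, had at least 3 UMIs together in 7 vehicle and 2 navitoclax cells. These cells held 761 of 762 and 347 of 347 of the mesothelial UMIs in Hhip/Aspn/Fgf18 fibroblasts. All 6 cells with Fgf18 alone were among them, with 2 vehicle cells that had Hhip and Fgf18 and 1 vehicle triple-positive cell. Counts of genes past 1.5-fold between treatments and the lower genes are given below with and without them. The counts against other classes of cells are given with them only.

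Relative to alveolar fibroblasts, 155 of 10019 genes with at least 50 UMIs over both classes in each library (1.55%) were at least 2-fold higher in Hhip/Aspn/Fgf18 fibroblasts in both libraries, and 72 (0.719%) were at least 2-fold lower. The choice of cells used the same counts, so these values describe the cells and carry no test. Ratios are log2 of (CPM + 5) over (CPM + 5). Lum (lumican), a proteoglycan of the same family as asporin, led the higher genes with 312 and 437 CPM, against 3.43 and 4.64 CPM in alveolar fibroblasts (log2 ratios of 5.23 and 5.52). Its relative Dcn (decorin) stood at 1984 and 2324 CPM against 332 and 378 CPM (2.56 and 2.60). Enpp2, which makes the lipid signal lysophosphatidic acid, stood at 446 and 522 CPM against 26.4 and 32.8 CPM (3.84 and 3.80).

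The 24 genes named as highest also held the contractile genes Acta2 (2.88 and 1.80) and Myl9 (2.61 and 2.46). Mustn1 (4.12 and 3.80), already counted among the peribronchial and ductal genes, was named too. Of 21 contractile genes compared, 5 were at least 2-fold higher and 2 at least 2-fold lower. Acta2 stood at 169 and 168 CPM, and mural cells at 6753 and 9110 CPM. Secreted signals among the 24 were Wnt5a (1.78 and 2.04), the axon guidance protein Sema3c (2.39 and 2.11) and the IGF carrier Igfbp5 (2.41 and 2.80). The IGF list had 4 of 8 genes at least 2-fold higher, among them Igf1 (1.24 and 1.20). Aqp1, a water channel, was also among the 24, but without the cells with mesothelial genes 103 of its 461 vehicle UMIs remained.

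Colq led the 12 genes named as lowest. Of the alveolar fibroblast list the 12 held Slc7a10 and Ces1d, and Ces1d also helped choose the alveolar class. The genes that follow were picked from the 12. Slc7a10, an amino acid transporter, stood at 56.0 and 39.7 CPM against 262 and 230 CPM (-2.13 and -2.39). Wnt2, a ligand of alveolar stroma, stood at 58.5 and 60.4 CPM against 195 and 176 CPM (-1.65 and -1.47), and Hsd11b1, which regenerates active glucocorticoid, at 803 and 812 CPM against 2481 and 2362 CPM (-1.62 and -1.53).

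**Figure D3:**
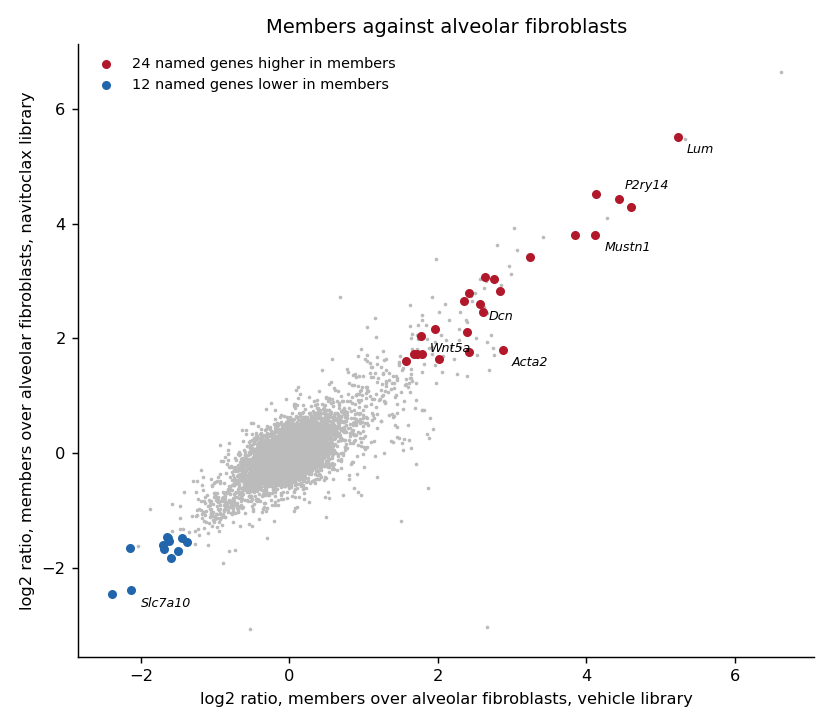
Each grey point is 1 of the 6264 genes with at least 50 UMIs over both libraries, compared between Hhip/Aspn/Fgf18 fibroblasts (members) and alveolar fibroblasts, as the log2 ratio of (CPM + 5) in the vehicle library (x axis) and the navitoclax library (y axis). The 24 genes named as higher (red, from Lamc3 to Lum) and the 12 named as lower (blue) lie near the diagonal. These genes were ranked by the library with the smaller difference, so a gene that differed in a single library could not rank high. Their place near the diagonal is therefore partly set by the selection and is no check of agreement between libraries.

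Against the 1668 vehicle and 1506 navitoclax cells over the Pi16/Dpt/Ccl11 limit, 103 of 10669 genes (0.965%) were at least 2-fold higher in Hhip/Aspn/Fgf18 fibroblasts in both libraries, and 38 (0.356%) lower. Of the 24 genes, 7 were at least 2-fold higher there and 0 lower. Against the 98 and 79 mural cells, 203 of 4872 genes (4.17%) were at least 2-fold higher and 130 (2.67%) lower, and of the 24 genes 5 were higher and 6 lower.

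Hedgehog pathway genes were read by role. No UMI of the ligands Ihh and Dhh was counted, and 0 and 2 UMIs of Shh. The receptor Ptch1, also a target of the pathway, stood at 207 and 203 CPM and was at least 2-fold above alveolar fibroblasts in both libraries (log2 ratios of 1.05 and 1.09). The transcription factor Gli1, its other direct readout, had 23 and 24 UMIs, or 19.2 and 19.8 CPM (1.20 and 1.18). Of 14 hedgehog genes compared, 4 were at least 2-fold higher and 0 lower. Besides Ptch1 and Gli1 these were Hhip, which chose the cells, and Foxf1, a mesenchymal transcription factor (1.27 and 1.63). The co-receptors Boc (0.42 and 0.49) and Gas1 (0.70 and 0.23) were within 2-fold. Ptch1 was not highest in triple-positive cells, where it stood at 172 and 105 CPM, against 277 and 288 CPM in cells with Hhip and Aspn only.

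Between treatments most hedgehog genes measured had ratios near 1. Ptch1 had 248 vehicle and 246 navitoclax UMIs, a navitoclax to vehicle ratio of CPM of 0.98 (0.82 to 1.18). For Gli1 the ratio was 1.03 (0.56 to 1.91), an interval wide enough to hold a 1.5-fold difference either way. Of 7 hedgehog genes with at least 50 UMIs over both libraries, 4 lay above 0 and 3 below on the log2 scale, with a median of 0.05 beside -0.01 over all 6264 genes. Smo, the signal transducer, was the 1 past 1.5-fold, at 83.6 and 49.6 CPM, 1.69-fold (1.21 to 2.36) lower with navitoclax.

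As a share of collagen-positive stromal cells, Hhip/Aspn/Fgf18 fibroblasts were 3.79% (3.18 to 4.48) of the 3456 cells with vehicle, and 4.48% (3.75 to 5.31) of the 2856 with navitoclax. The difference of 0.691 percentage points had an interval of -0.291 to 1.70. The sort and the equal mixing of epithelial and stromal cells can set such shares, and the difference was not tested. One limit of the choice decided this value. With at least 3 UMIs of the 3 genes there were 563 vehicle and 589 navitoclax cells, of which 398 and 435 were over the limit on Pi16, Dpt and Ccl11. That limit alone removed 350 and 406 cells, and 242 and 295 of these had Dpt as their only gene of the 3.

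Without that limit the shares were 13.9% (12.8 to 15.1) and 18.7% (17.3 to 20.2), which is 4.78 points (2.95 to 6.63) apart. Triple-positive cells showed the same direction. Among all collagen-positive cells, 160 vehicle (4.63%) and 216 navitoclax cells (7.56%) had all 3 genes, a difference of 2.93 points (1.75 to 4.15). Of them, 91 and 150 were over the Pi16/Dpt/Ccl11 limit alone and 34 and 29 over the mural limit. The choice therefore kept 69 of the 376 triple-positive cells in both libraries. After each cell was thinned to 3000 UMIs, with 255 and 246 shallower cells left out, the share with all 3 genes was 3.09% (2.52 to 3.75) and 5.48% (4.64 to 6.42), 2.39 points (1.34 to 3.47) apart.

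The triple-positive cells that the Pi16/Dpt/Ccl11 limit removed had a like sum of the 9 peribronchial and ductal genes, at 3475 and 3555 CPM beside 3266 and 3302 CPM in those kept. Mustn1 stood at 1930 and 1991 CPM in the cells removed, beside 1901 and 1684 CPM in those kept. The alveolar sum was lower in the cells removed, at 747 and 749 CPM against 1441 and 1267 CPM, and so was Tcf21, at 25.6 and 60.7 CPM against 105 and 127 CPM. Dpt (dermatopontin), a matrix protein, stood at 1133 and 1043 CPM in them and at 302 and 323 CPM in the triple-positive cells kept, a difference that the limit itself sets.

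Navitoclax against vehicle was compared in 6264 genes with at least 50 UMIs over both libraries. On the log2 scale 3007 of them lay above 0 and 3257 below. In Hhip/Aspn/Fgf18 fibroblasts 163 genes (2.6%) were at least 1.5-fold higher and 255 (4.07%) at least 1.5-fold lower in the navitoclax library, 418 (6.67%) in all. In alveolar fibroblasts the same genes gave 37 (0.591%) and 25 (0.399%). That class held 10791635 and 8403606 UMIs, so its ratios carry less counting error and the counts of both classes cannot be compared directly. Without the 9 cells with mesothelial genes 169 of 5953 genes (2.84%) were higher and 190 (3.19%) lower.

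Heat shock genes, which encode chaperones that refold proteins, led the higher genes. Hspa1a, an inducible HSP70, had 108 UMIs in 38 vehicle cells and 1243 in 115 navitoclax cells, or 90.3 and 1028 CPM. Its navitoclax to vehicle ratio was 11.4 (9.35 to 14). Hspa1b, its near-identical neighbour on chromosome 17, had 27 UMIs in 16 vehicle cells and 558 in 105 navitoclax cells, a ratio of 20.4 (13.9 to 31.3). How reads were divided between these copies is uncertain. Dnajb1, the HSP40 partner of HSP70, stood at 53.5 and 275 CPM, a ratio of 5.15 (3.93 to 6.83). Hspb1 (HSP25) stood at 630 and 1435 CPM, a ratio of 2.28 (2.09 to 2.48), and Hspa8, the constitutive HSP70, at 568 and 1084 CPM, a ratio of 1.91 (1.74 to 2.10). Without the 9 cells with mesothelial genes the ratios were 12.3 (9.95 to 15.4) for Hspa1a, 5.35 (4.03 to 7.21) for Dnajb1 and 2.69 (2.45 to 2.97) for Hspb1.

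These ratios were not limited to Hhip/Aspn/Fgf18 fibroblasts. Alveolar fibroblasts had 13.2 (12.2 to 14.4) for Hspa1a, 37.8 (31.1 to 46.3) for Hspa1b, 1.85 (1.80 to 1.90) for Hspb1 and 1.72 (1.66 to 1.78) for Hspa8. Dnajb1 had a ratio of 2.99 (2.72 to 3.28) there, below the interval in Hhip/Aspn/Fgf18 fibroblasts, a difference that was not tested between libraries. Of 15 heat shock genes, 14 lay above 0, beside 3007 of all 6264 genes. Past 1.5-fold were 6 of the 15, and the median log2 ratio was 0.44, beside 0.48 in alveolar fibroblasts. The 1 heat shock gene below 0 was Hspb8, at 55.2 and 47.1 CPM.

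The same genes were compared within the groups of cells by transcript. Hspa1a had 25 vehicle and 254 navitoclax UMIs in triple-positive cells, a ratio of 7.70 (5.10 to 12.1), and 10 and 387 UMIs in cells with Hhip alone, a ratio of 25.5 (13.7 to 53.5). Hspb1 had ratios of 2.33 (1.92 to 2.84) in triple-positive cells, 3.38 (2.74 to 4.17) with Hhip and Aspn, 2.35 (2.0 to 2.76) with Hhip alone and 1.99 (1.57 to 2.53) with Aspn alone. Dnajb1 was less even, at 7.19 (4.16 to 13.5) with Hhip alone and 1.38 (0.68 to 2.86) with Aspn alone.

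**Figure D4:**
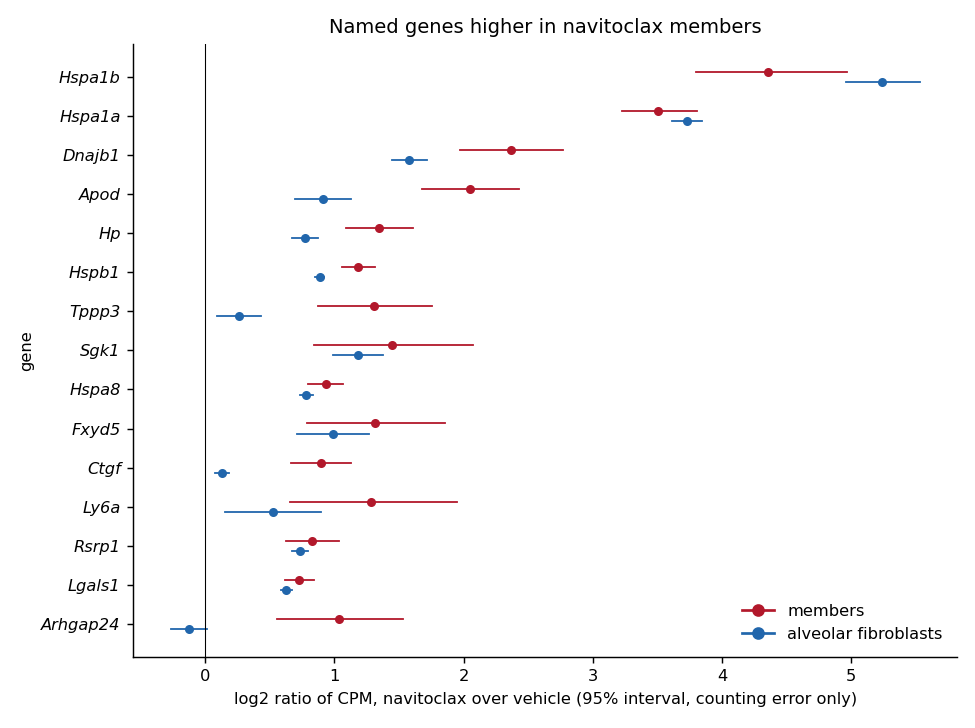
Points give the log2 ratio of CPM, navitoclax over vehicle, for the 15 genes named as higher, in Hhip/Aspn/Fgf18 fibroblasts (members, red) and alveolar fibroblasts (blue), with bars for 95% intervals of counting error. Hspa1b, Hspa1a and Dnajb1 stand highest in both classes, while Ctgf, Tppp3 and Arhgap24 lie further right in the Hhip/Aspn/Fgf18 fibroblasts.

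Heat shock genes are switched on through heat shock elements, inverted repeats of the letters GAA. The promoters of Hspa1a, Hspa1b and Hspb1 are shown as examples picked from the heat shock genes named as higher. Dnajb1, which ranked above Hspb1, is not shown and had no match in its 2 promoters. Hspa8 had no promoter in the set searched. The sequences are the 250 bases before the transcription start, 5′ to 3′ on the gene's strand, from RefSeq (GRCm38.p6), with a match to GAANNTTC in capitals. Hspa1a is at chr17:34972157-34972406 (minus strand), Hspa1b at chr17:34959239-34959488 (minus strand) and Hspb1 at chr5:135887669-135887918 (plus strand).
Hspa1a: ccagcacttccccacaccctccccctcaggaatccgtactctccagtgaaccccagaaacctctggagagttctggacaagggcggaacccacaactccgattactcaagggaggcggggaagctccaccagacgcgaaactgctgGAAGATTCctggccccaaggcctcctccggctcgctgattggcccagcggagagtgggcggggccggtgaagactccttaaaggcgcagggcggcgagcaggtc
Hspa1b: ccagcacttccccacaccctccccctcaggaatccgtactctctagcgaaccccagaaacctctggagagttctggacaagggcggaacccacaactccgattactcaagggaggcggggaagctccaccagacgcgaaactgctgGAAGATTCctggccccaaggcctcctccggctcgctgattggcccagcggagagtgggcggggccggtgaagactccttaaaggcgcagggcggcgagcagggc
Hspb1: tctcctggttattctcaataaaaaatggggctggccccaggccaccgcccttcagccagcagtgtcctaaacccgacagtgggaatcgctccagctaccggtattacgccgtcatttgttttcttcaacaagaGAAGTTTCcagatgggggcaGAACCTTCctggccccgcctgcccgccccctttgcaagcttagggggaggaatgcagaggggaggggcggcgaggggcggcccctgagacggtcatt
The Hspa1a and Hspa1b stretches share 247 of 250 bases, each with 1 match that begins 104 bases before the start, and Hspb1 has 2 matches that begin 117 and 97 bases before it. GAANNTTC and TTCNNGAA, each of which reads the same on both strands, were searched from 250 bases before to 50 after the start. At least 1 occurred in 4946 of all 32851 promoters (15.1%) and in 12 of the 18 promoters of heat shock genes (66.7%). These 18 belong to 12 genes, of which Dnajb1 had no match. A match is a stretch of letters and no evidence of binding.

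Genes of ER folding and stress were mostly above 0. Of 19 ER chaperone and folding genes, 15 lay above 0, beside 3007 of all 6264 genes. Past 1.5-fold higher were 3 of the 19, and the median log2 ratio was 0.35, beside 0.21 in alveolar fibroblasts. Hspa5 (BiP), the main ER chaperone, stood at 462 and 724 CPM, a ratio of 1.57 (1.41 to 1.75), against 1.30 (1.25 to 1.35) in alveolar fibroblasts. Creld2, an ER stress gene, had 22 and 46 UMIs, a ratio of 2.07 (1.22 to 3.61). Of 20 listed genes of the PERK, ATF4 and CHOP branch, 7 had at least 50 UMIs, and all 7 lay above 0. Their median was 0.20, beside -0.006 in alveolar fibroblasts, and 1 gene, Atf3, was past 1.5-fold. Of 17 listed genes of the IRE1 and XBP1 branch, 16 had at least 50 UMIs. Their median was 0.16, beside 0.14 in alveolar fibroblasts, with 0 past 1.5-fold. Xbp1 itself stood at 192 and 167 CPM.

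Collagen genes were mostly above 0, and other matrix genes were not. Of 18 collagen genes 16 lay above 0, beside 3007 of all 6264 genes. The collagen median was 0.28, beside 0.31 in alveolar fibroblasts. Col3a1, a fibrillar chain that also chose the cells, stood at 2903 and 3501 CPM, and Col15a1, a basement membrane collagen, at 25.9 and 50.4 CPM, a ratio of 1.95 (1.24 to 3.10). Among 29 elastic fibre and glycoprotein genes, 15 lay above and 14 below 0, with a median of 0.02, and of 9 small leucine-rich proteoglycans 4 lay above and 5 below, with a median of -0.06. Vcan (versican), a large matrix proteoglycan, had 23 and 64 UMIs, a ratio of 2.75 (1.69 to 4.65). Fbln5, which builds elastic fibres, had 211 and 123 UMIs, or 176 and 102 CPM.

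Of the genes further right than in alveolar fibroblasts, Ctgf, a matricellular target of TGF-β and YAP, stood at 202 and 375 CPM, a ratio of 1.86 (1.59 to 2.18), against 1.10 (1.06 to 1.14) in alveolar fibroblasts. Without the 9 cells with mesothelial genes the ratio was 1.79 (1.52 to 2.11). It was higher in each group, with ratios of 1.82 (1.25 to 2.70) in triple-positive cells and 2.11 (1.49 to 3.02) with Aspn alone. Arhgap24, which restrains RAC, had 54 and 112 UMIs, a ratio of 2.05 (1.47 to 2.89), against 0.92 (0.83 to 1.01). Apod, a lipid carrier, had 74 and 309 UMIs, but 66.7% of the navitoclax UMIs lay in 1 cell, and its log2 ratio of 1.96 was 0.69 without the top cell of each library. Hp (haptoglobin) likewise had 37.5% of its 443 navitoclax UMIs in 1 cell. Its direction turned, to log2 ratios of -0.34 with cells thinned to 3000 UMIs and -0.66 with the 3 genes at 3 UMIs per 10000.

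The targets of navitoclax did not differ beyond counting error. Bcl2 had 56 and 58 UMIs, a ratio of 1.02 (0.70 to 1.51), Bcl2l1 (BCL-XL) 56 and 47 UMIs, a ratio of 0.83 (0.55 to 1.25), and Bcl2l2 (BCL-W) 21 and 21 UMIs, a ratio of 0.99 (0.51 to 1.90). These intervals hold differences of about 1.5-fold for Bcl2, and larger ones for Bcl2l1 (down to 0.55) and Bcl2l2 (0.51 to 1.90). Of 5 pro-apoptotic family genes with at least 50 UMIs, 2 lay above and 3 below 0, and 0 were past 1.5-fold.

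The 15 genes named as lower came mostly from the cells with mesothelial genes. Slpi, a protease inhibitor, had 362 vehicle and 11 navitoclax UMIs, and 360 of the 362 lay in the 7 vehicle cells with mesothelial genes. Upk3b, Lrrn4 and Aldh1a2, with 250, 94 and 79 vehicle UMIs, had 0 outside those cells. Without these 9 cells 2 of the 15 genes, Stmn1 and Sbsn, were still past 1.5-fold lower, and 6 lay above 0. Most of these values rest on few UMIs. Sbsn had 12 and 6, a ratio of 0.46 (0.14 to 1.33), and of the 6 above 0 Cldn15 had 0 and 2, Krt7 2 and 5, Rspo1 4 and 5 and Slpi 2 and 9. C3, the central complement protein, then had 330 and 381 UMIs and a log2 ratio of 0.09 in place of -1.11.

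**Figure D5:**
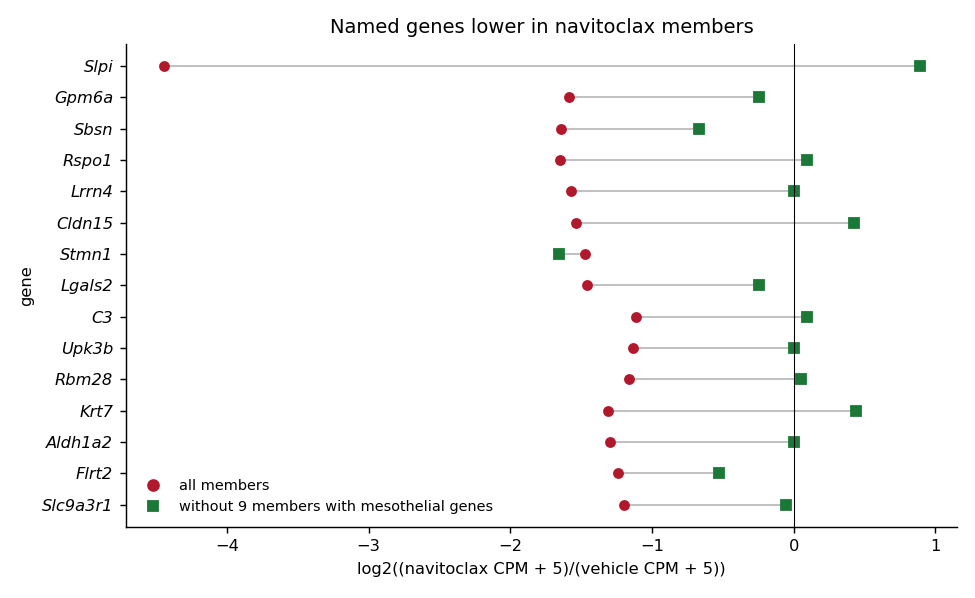
Points give log2((navitoclax CPM + 5)/(vehicle CPM + 5)) for the 15 genes named as lower, in all 259 cells (red circles) and without the 9 cells with mesothelial genes (green squares). Squares of Upk3b, Lrrn4 and Aldh1a2 lie at 0 because no UMI remained, Slpi moves from -4.45 to 0.89 and Stmn1 stays low at -1.66.

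With the 9 cells left out, Stmn1, a microtubule regulator of dividing cells, led the lower genes, with 102 vehicle and 31 navitoclax UMIs, 3.56-fold (2.36 to 5.51) lower with navitoclax. A single vehicle cell held 32.7% of its vehicle UMIs. Txnip, which binds thioredoxin, was 1.92-fold (1.64 to 2.26) lower, Rgs2, a regulator of G protein signalling, 1.83-fold (1.64 to 2.05) and Cxcl12, the chemokine that draws CXCR4+ cells, 2.31-fold (1.55 to 3.52). Without the Pi16/Dpt/Ccl11 limit the direction of Cxcl12 turned, to a log2 ratio of 0.23. Inmt was 1.61-fold (1.54 to 1.69) lower, with 4430 and 2982 UMIs, and H3f3b, a histone variant, 1.56-fold (1.46 to 1.67). Over all 259 cells H3f3b stood at 1964 and 1278 CPM, and at 2020 and 1166 CPM in alveolar fibroblasts, so that it was lower in both classes. Inmt was also lower in alveolar fibroblasts, at 7256 and 5665 CPM.

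Contractile genes were near their vehicle levels. Acta2 had 202 and 203 UMIs, while in alveolar fibroblasts it stood at 18.6 and 44.7 CPM. Mustn1, counted here among the peribronchial and ductal genes, had 562 and 669 UMIs, a ratio of 1.18 (1.05 to 1.32). Without the cells with mesothelial genes its ratio was 1.12 (0.998 to 1.25), an interval that includes no difference. It was 0.89 (0.77 to 1.02) in triple-positive cells but 2.35 (1.79 to 3.10) with Hhip and Aspn only. Wnt5a, of the same list, had 163 and 215 UMIs, a ratio of 1.30 (1.06 to 1.61). Without the cells with mesothelial genes its ratio was 1.27 (1.03 to 1.57). It was 1.19 (0.91 to 1.55) in triple-positive cells and 1.71 (1.01 to 2.88) with Hhip and Aspn only. Of 23 contractile genes 15 lay above and 8 below 0, and 0 were past 1.5-fold in either direction. BMP genes had a median of -0.12 over 16 genes, with Id1, a BMP target, at 269 and 175 CPM, and 2 past 1.5-fold lower. Of 20 immediate-early genes, which respond to stress and handling within minutes, 13 lay above 0 with a median of 0.06, beside -0.31 in alveolar fibroblasts.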

How the data were processed

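The authors deposited raw UMI counts per gene and cell barcode for 1 vehicle and 1 navitoclax library, made with Cell Ranger 4.0.0 per the file headers, with the build mm10, as the submitters' processing notes name it. Further settings: not given in the sources used. The libraries held 97958947 and 98517048 UMIs. Counts were summed over the cells of a class and divided by their total (CPM), and log2 ratios used a pseudocount of 5 CPM. Intervals are exact Poisson (levels), conditional exact (ratios), Clopper-Pearson (shares) and Newcombe (differences of shares), at 95%. No test was run, because each group had 1 library. The procedure was tried on simulated counts that varied by counting error only. They held no variation between cells or libraries, so the trial cannot speak to such variation. The members and the 27 gene lists were chosen with earlier results of these data known.

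Genes named for the class contrast were the 25 highest and 12 lowest of those with at least 100 UMIs in each library and 50 CPM, ranked by the library nearer 0, of which 24 higher ones are given and 1 is not reported here. Genes named for treatment were the 15 highest and 15 lowest of those with at least 100 UMIs over both libraries, ranked by the interval bound nearest 1. Left out were the genes of the rule, gene models with no name, and genes of ribosomes, mitochondria, haemoglobin, immunoglobulins and sex chromosomes (Xist, Tsix and Y genes), with genes under 10% of their epithelial level. From each list up to 3 genes with the greatest ratio and 3 with the highest level could be named. Other listed genes were chosen after their values were seen. Promoters are from RefSeq and gene positions from GENCODE M21. Python 3.11.15, numpy 2.4.6, scipy 1.17.1, pandas 2.3.3 and scanpy 1.11.5 (Scrublet) were used.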

Additional observations from a re-analysis of the deposited data

Results flagged for a closer look

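In 12 genes the navitoclax to vehicle log2 ratio had opposite signs in Hhip/Aspn/Fgf18 fibroblasts and alveolar fibroblasts, with counting intervals on either side of no difference. The count is given without the number of genes looked at, so it cannot be read as a share. With 1 library per group, none of these differences was tested. Higher with navitoclax in the Hhip/Aspn/Fgf18 fibroblasts and lower in alveolar fibroblasts were the stress genes Atf3 (0.60 against -0.46), Jun (0.39 against -0.14) and Nupr1 (0.30 against -0.08), and the nuclear RNA Malat1 (0.058 against -0.01). In triple-positive cells alone the Malat1 ratio was 0.87 (0.86 to 0.89), which is lower with navitoclax. Lower there and higher in alveolar fibroblasts were the chemokine Cxcl12 (-1.0 against 0.26, but 0.23 in the former without the Pi16/Dpt/Ccl11 limit), the hedgehog co-receptor Gas1 (-0.33 against 0.14), the IGF carrier Igfbp4 (-0.54 against 0.21) and the transcription factor Osr1 (-0.52 against 0.18). The interferon genes Ifit3 (-0.87 against 0.30) and Oasl2 (-1.30 against 0.41) had the same order. So did Slpi (-4.45 against 1.24) and C3 (-1.11 against 0.38), whose vehicle UMIs lay mostly in the 7 cells with mesothelial genes.

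Over the mitochondrial limit, 3 vehicle barcodes with a median of 17.7% mitochondrial UMIs and 2 navitoclax barcodes with 21.1% met every other part of the choice. They entered no comparison.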

How the results depend on the processing

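Leaving out the 9 cells with mesothelial genes, taking triple-positive cells alone, leaving out cells rich in Sftpc, dropping the Pi16/Dpt/Ccl11 limit, and the comparisons of triple-positive cells (thinned ones included) were chosen after seeing the data. No paired analysis was possible because each group had 1 library.

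Each choice of cells or of UMI minimum sets anew which genes are compared. The counts of genes in this paragraph therefore have different totals, and a lower count need not be a lower share. The 163 genes at least 1.5-fold higher became 108 in triple-positive cells, 66 without the Pi16/Dpt/Ccl11 limit, 248 with a mean of per-cell CPM, 58 at a minimum of 100 UMIs and 398 at 20. The 255 lower became 147 with cells thinned to 3000 UMIs, 98 in triple-positive cells, 111 without the limit, and 105 and 539 at minimums of 100 and 20 UMIs. The 155 genes 2-fold above alveolar fibroblasts became 243 in triple-positive cells and 298 without the limit. The 72 below became 25 and 159 at 2 and 5 UMIs of the 3 genes, 315 after thinning, 602 in triple-positive cells, 160 without the limit and 125 with a pseudocount of 1 CPM. The share difference became 4.78 points without the limit. The cause was not tested.

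For named genes, 2584 log2 ratios under the alternatives stayed within the counting interval of the main value and 442 lay outside it. A further 26 changed sign, counted only for genes past 1.5-fold with an interval clear of no difference. Sign changes of other genes fall in the former counts. In triple-positive cells the 26 held Apod (-1.54), Dbp (-1.95), Fmod (0.70), Hoxa5 (0.46), Igfbp2 (1.29), Plod2 (-0.020) and Sgk1 (-1.15). Without the mesothelial cells they were Aqp1 (0.46), C3 (0.091), Cdon (0.30), Cldn15 (0.42), Krt7 (0.44), Rbm28 (0.052), Rspo1 (0.092), Sfrp2 (0.35) and Slpi (0.89). After thinning they were Cdon (0.33), Dbp (-0.36), Fbln2 (-0.18), Fmod (0.21), Hist1h1c (0.067) and Hp (-0.34). Without the limit they were Cxcl12 (0.23), Fbln2 (-0.14) and Tef (-0.13), and Hp was -0.66 with the 3 genes at 3 UMIs per 10000. Over the alternatives Hspa1a ranged from 2.89 to 3.63, Hspb1 from 1.10 to 1.42, Hspa5 from 0.46 to 0.85, Ctgf from 0.35 to 1.06 and the heat shock median from 0.40 to 0.86. Genes with few UMIs, such as Gli1, have intervals too wide to show a 1.5-fold difference.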
